A study of Homo sapiens with 4 samples.

Results

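The imprinted and neighbouring genes of 15q11 were followed here through 10 genes, MKRN3, MAGEL2, NDN, SNRPN, SNURF, PWAR6, UBE3A, NIPA1, NIPA2 and CYFIP1. They are 10 of the 20151 genes named on the array and were read by 16 of its 32968 probe sets, taking every probe set whose gene symbol field holds one of these names. Of these, 8 carried 1 symbol and 8 carried several. SNURF and SNRPN shared 1 probe set, and SNRPN was listed on 7 more together with small nucleolar RNA symbols. Some probe sets of repeated copies held identical values, which left 13 distinct ones. The region was chosen by measured values, the low levels of the small nucleolar RNAs (snoRNAs) SNORD116 in RS4;11, so every value that sets RS4;11 against the other lines is a description, with no test.

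The study measured total RNA from 4 leukaemia lines on whole-transcript Affymetrix arrays, each line once. All are human precursor B-cell lines of acute lymphoblastic leukaemia (ALL). The translocation t(4;11), which rearranges the MLL gene, is present in RS4;11 and SEM and absent from NALM6 and REH. All were grown below confluency in RPMI medium with fetal bovine serum, and the labels name no drug or genetic manipulation. A group is 2 separate lines, so whatever else sets the lines apart cannot be told apart from the translocation. In bulk RNA, fewer expressing cells and less RNA per cell cannot be told apart.

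The values are log2 levels per probe set, and 1 unit is a 2-fold difference. The arrays had medians of 6.40 to 6.46 and 25th percentiles of 4.97 to 5.02, so levels near 5 lie close to the dim end. The table holds no detection call, so a fold against such a level is that of the measured values and may be a lower bound. Of 8 listed B-cell precursor markers 6 were measured, meaning that a probe set carried their symbol alone. All 6 lay above the array median in RS4;11, SEM and NALM6, and 5 of 6 in REH, where VPREB1 was at 5.51. The T-cell genes CD3D, CD3E and CD3G lay between 4.54 and 4.97 in every line, but the cytotoxic granule gene NKG7 reached 10.99 in RS4;11 and 9.13 in SEM, against 6.39 in NALM6 and 7.11 in REH. Its part in the group differences was not tested. Above the array median lay 1 of 5 myeloid markers in RS4;11, NALM6 and REH and 2 of 5 in SEM, 0 of 3 erythroid markers, 1 of 4 stromal and epithelial markers, and among 4 neuronal markers 1 in NALM6 and 0 elsewhere.

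Imprinted genes are transcribed from the copy of 1 parent. In 15q11, MKRN3, MAGEL2, NDN and the long SNURF-SNRPN transcription unit are active on the paternal copy, and an imprinting centre at the start of SNURF-SNRPN sets that state. The unit runs on through non-coding RNAs such as PWAR6 and through the tandem SNORD116 and SNORD115 copies, which lie in its introns, and in neurons it continues antisense to UBE3A. UBE3A is silenced on the paternal copy in neurons and transcribed from both copies in most other cells. NIPA1, NIPA2 and CYFIP1 lie on the centromeric side and are not imprinted. Loss of the paternal unit causes Prader-Willi syndrome, and loss of maternal UBE3A causes Angelman syndrome.

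Upstream sequence is shown for the start of the SNURF-SNRPN unit, for UBE3A at its far end, and for MKRN3 and CYFIP1, the members with the widest gap between the groups. Each is the 250 bases before a RefSeq start (GRCh38.p14), 5′ to 3′ on the gene's strand, with CpG dinucleotides, the sites of DNA methylation, in capitals. The SNURF sequence is chr15:24954737-24954986 (plus strand) and also precedes a start of SNRPN. UBE3A is chr15:25439057-25439306 (minus strand), MKRN3 is chr15:23565424-23565673 (plus strand) and CYFIP1 is chr15:22980899-22981148 (minus strand).
SNURF: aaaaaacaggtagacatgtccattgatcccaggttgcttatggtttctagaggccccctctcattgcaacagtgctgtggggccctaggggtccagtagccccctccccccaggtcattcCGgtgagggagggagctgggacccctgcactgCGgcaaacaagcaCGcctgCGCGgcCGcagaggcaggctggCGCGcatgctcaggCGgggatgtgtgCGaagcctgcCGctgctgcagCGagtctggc
UBE3A: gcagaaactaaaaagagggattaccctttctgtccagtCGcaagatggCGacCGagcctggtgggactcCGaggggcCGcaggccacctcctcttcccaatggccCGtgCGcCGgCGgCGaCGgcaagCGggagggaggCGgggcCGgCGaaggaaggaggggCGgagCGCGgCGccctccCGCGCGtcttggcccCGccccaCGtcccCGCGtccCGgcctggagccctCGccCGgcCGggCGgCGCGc
MKRN3: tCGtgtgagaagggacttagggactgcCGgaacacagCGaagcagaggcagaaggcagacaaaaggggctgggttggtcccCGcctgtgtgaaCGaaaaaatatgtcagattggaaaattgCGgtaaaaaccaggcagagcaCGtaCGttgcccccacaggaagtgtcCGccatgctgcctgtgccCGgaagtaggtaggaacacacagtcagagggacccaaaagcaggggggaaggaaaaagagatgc
CYFIP1: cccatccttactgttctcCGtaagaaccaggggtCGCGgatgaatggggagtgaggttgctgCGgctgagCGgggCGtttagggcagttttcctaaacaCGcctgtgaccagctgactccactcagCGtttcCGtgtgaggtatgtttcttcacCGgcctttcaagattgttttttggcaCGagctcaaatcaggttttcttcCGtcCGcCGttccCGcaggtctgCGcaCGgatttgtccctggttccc
They hold 12 CpG (SNURF), 33 (UBE3A), 10 (MKRN3) and 17 (CYFIP1). For UBE3A and CYFIP1, of which the table lists several starts, the most upstream is shown. The count depends on this choice. The 250 bases before the 3 starts of UBE3A hold 31 to 37 CpG and those before the 4 starts of CYFIP1 hold 6 to 28. SNRPN has further starts upstream of the one shared with SNURF. In the full windows of 300 bases, which run 50 bases past the start, SNURF had 18 and UBE3A 39, and 44.5% and 8.71% of all 35116 RefSeq windows hold at least as many. Methylation was not measured here, and the alleles were not told apart. Of the 10 genes, 9 matched the RefSeq promoter table. PWAR6 did not.

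In RS4;11 the SNURF-SNRPN, PWAR6 and most SNORD116 probe sets of the unit were low. Downstream, UBE3A was not lower than in the other lines. SNORD115 was not lower either, but it was dim in all lines, so a loss there could go unseen. The probe set shared by SNURF, which encodes a small protein at the front of the transcript, and SNRPN, which encodes the spliceosomal protein SmN, stood at 5.53 in RS4;11, against 9.90, 9.62 and 9.58 in SEM, NALM6 and REH. The other 3 lines thus lay within 0.33 of each other, and RS4;11 lay 4.17 below their mean of 9.70 ± 0.18 (SD, n = 3), a measured 18.1-fold. The probe set stood at the 37.5th percentile of that array and at the 84.5th, 81.6th and 81.5th percentiles in SEM, NALM6 and REH.

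PWAR6, a non-coding RNA of the unit whose function is not settled, stood at 5.24 in RS4;11, against 6.83, 6.69 and 7.22 in SEM, NALM6 and REH. RS4;11 lay 1.67 below the mean of the other lines, 6.91 ± 0.28 (SD, n = 3), which is 3.19-fold. The probe set listed for SNORD64 and PWAR5, between SNURF-SNRPN and PWAR6, was at 5.04 in RS4;11 against 8.41, 8.48 and 8.75 in SEM, NALM6 and REH. The probe set of SNORD109A and its distal copy SNORD109B, which cannot be told apart here, was at 5.13 against 8.75, 8.36 and 8.32. The low line was the same in each case.

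SNRPN was also listed beside snoRNA copies. The probe set of SNORD116-4 and SNRPN stood at 4.42 in RS4;11, against 7.22, 7.68 and 7.99 in SEM, NALM6 and REH. The brightest of its probe sets, a pair with identical values listed for SNORD116 copies 14 to 22 and SNRPN, stood at 5.14 in RS4;11, against 12.16, 12.41 and 12.60 in SEM, NALM6 and REH, a measured 152-fold below the mean of the other lines, with the low value at the 28.8th percentile of its array. The probe set of SNORD115-7 and SNRPN was dim and flat instead, at 4.86, 4.70, 4.81 and 4.68 in the same order, as were 3 identical probe sets of SNORD115-43, further copies and SNRPN, at 5.07, 4.85, 5.04 and 5.03. The symbol SNRPN therefore covers 3 kinds of signal, and the probe set shared with SNURF is the one that names no snoRNA.

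**Figure D1:**
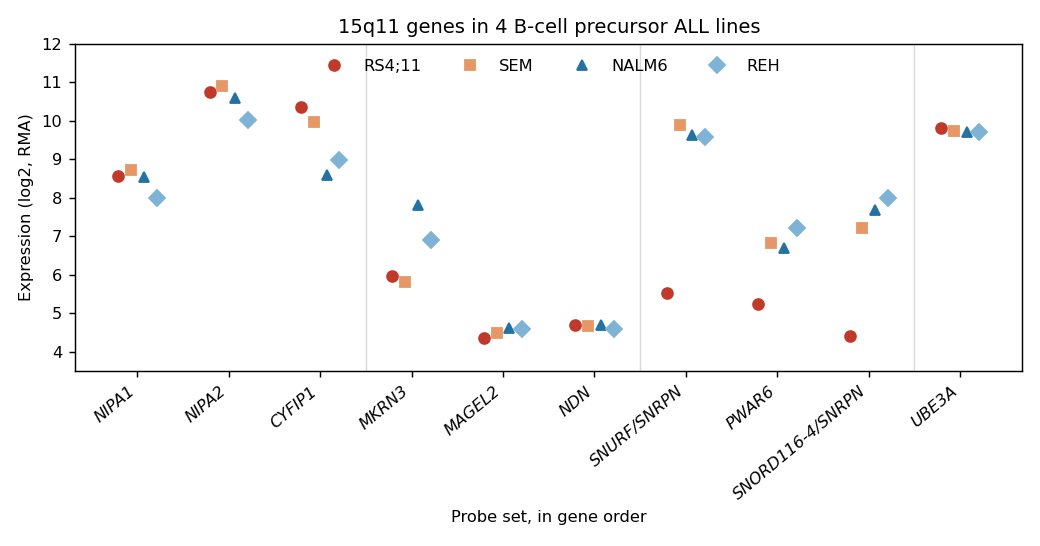
Log2 expression (y axis) of 10 probe sets of the 15q11 genes in gene order (x axis), with 1 point per cell line and 1 array each. Vertical lines set off the genes on the centromeric side, MKRN3 to NDN, the SNURF-SNRPN unit and UBE3A. RS4;11 is the low line for SNURF/SNRPN (5.53), PWAR6 (5.24) and SNORD116-4/SNRPN (4.42), and all lines meet at UBE3A (9.71 to 9.80).

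Counted without a test, RS4;11 was at least 2-fold below each of the other 3 lines in 5 of the 16 probe sets (4 of 13 distinct), against 0.488% of all probe sets. This is the contrast by which the region was picked, and nothing is read from that share. No member probe set was 2-fold above the others in RS4;11 (0 of 16, 0.613% of all). In SEM, NALM6 and REH the counts below were 0 of 16 each, with 0.519%, 0.831% and 0.955% of all probe sets. The counts above were also 0 of 16 in each, with 1.11%, 0.84% and 1.5%.

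The SNORD116 copies, box C/D snoRNAs of unsettled target that are cut from the introns of the unit, were read by 29 probe sets with 26 distinct sets of values. These short repeats resemble each other, so copies may share signal, and processed snoRNA is not told apart from its host transcript. In RS4;11 their median was 5.19 (lowest 4.41, highest 7.63). It was 8.23 in SEM (5.18 to 12.58), with 8.38 in NALM6 (5.32 to 12.78) and 8.76 in REH (5.17 to 12.90). RS4;11 was the lowest line in 28 of 29 probe sets (25 of 26 distinct), against 18.6% of all probe sets. It was at least 2-fold below every other line in 23 of 29 (20 of 26 distinct), against 0.488% of all. These are the values by which the region was picked.

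SNORD116-15, the brightest copy in the other lines, had 4.70 in RS4;11, at the 11.98th percentile of the array, against 12.58, 12.78 and 12.90 in SEM, NALM6 and REH, so that its measured 266-fold difference has a dim value on 1 side. SNORD116-14 had 4.50 against 11.48, 11.91 and 12.13. Of the 6 probe sets without a 2-fold gap to every line, SNORD116-10, SNORD116-12, SNORD116-16 and SNORD116-28 lay at or below 5.97 in all lines. The probe set of copies 2 and 6 had 7.63 in RS4;11 against 8.40, 8.58 and 8.80 in SEM, NALM6 and REH, and SNORD116-18 was at 5.78 in RS4;11 and also low in SEM (5.81), against 7.02 in NALM6 and 8.23 in REH.

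Differences among the other 3 lines did not enter the choice of the region. SEM lay below both NALM6 and REH in 20 of the 26 distinct SNORD116 values, between them in 5 and above both in 1, with a median difference from their mean of -0.29. SEM lay below both in 32.1% of all probe sets. For the SNURF-SNRPN probe set the order was the other way, with SEM 0.31 above the mean of NALM6 and REH (limma on SEM, NALM6 and REH, adjusted p = 0.826). REH was the highest line in 23 of the 26 distinct SNORD116 values, while REH was highest in 22.1% of all probe sets. Copies that share probes or a host transcript are not independent of each other.

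SNORD115, the brain-enriched snoRNA cluster just downstream, was dim in all lines. Its 28 probe sets (26 distinct) had medians of 4.99 in RS4;11, against 4.76, 4.76 and 4.71 in SEM, NALM6 and REH. The line that was low for SNORD116 was the highest here, in 25 of 28 probe sets, against 31.4% of all probe sets, with a median of 0.24 above the mean of the others and a largest value of 0.67. Among all probe sets at or below the median level it was highest in 36.7%, and its array had the highest 25th percentile, 5.02 against 4.97 to 4.99. The part of this array-wide shift in the SNORD115 values was not tested. At such dim levels a loss of SNORD115 in RS4;11 could go unseen. The neuronal markers SYP and SNAP25 lay between 4.80 and 5.12 in every line.

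**Figure D2:**
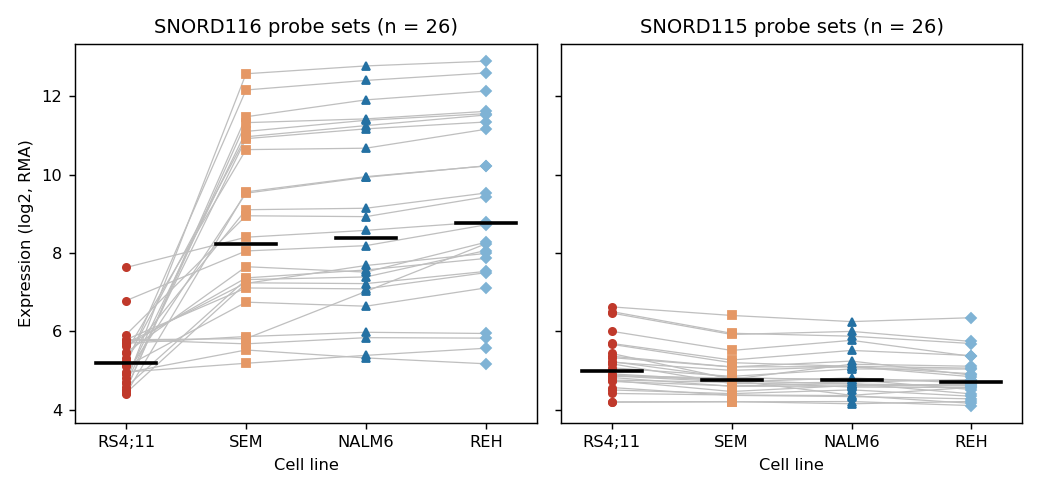
Log2 expression (y axis) of SNORD116 (left) and SNORD115 (right) probe sets by cell line (x axis), with 1 point per probe set with distinct values, grey lines joining a probe set across lines and black bars at the median. The SNORD116 median is 5.19 in RS4;11 against 8.23 to 8.76 in the other lines, and the SNORD115 medians all lie between 4.71 and 4.99.

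UBE3A, an E3 ubiquitin ligase that adds ubiquitin to proteins for degradation, stood at 9.80 in RS4;11 and 9.74 in SEM, against 9.72 in NALM6 and 9.71 in REH. The 4 lines lay within 0.09 of each other, at the 82.5th to 83.4th percentile of their arrays. The difference between the translocation lines and the others was 0.05 (limma, SE 0.09, adjusted p = 0.889), and it lay between 0.02 and 0.09 when any 1 line was left out. In RS4;11, the line with the low SNURF-SNRPN value, UBE3A was 0.08 above the mean of the other lines.

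On the other side of the unit, NDN and MAGEL2, 2 genes of the MAGE family whose proteins bind and steer E3 ubiquitin ligases, were dim in all lines. NDN stood at 4.70 in RS4;11 and 4.68 in SEM, against 4.69 in NALM6 and 4.58 in REH, between the 10.3rd and 13.5th percentile of the arrays. MAGEL2 stood at 4.35 and 4.48 against 4.61 and 4.60, at or below the 10.8th percentile. At these levels a further loss in RS4;11 was not detectable on the array. NPAP1, an imprinted gene between NDN and SNURF-SNRPN, was as dim, at 4.80, 4.87, 4.96 and 4.79.

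MKRN3, a zinc-finger E3 ubiquitin ligase known as a brake on puberty, was not lowest in RS4;11. It was at 5.97 in RS4;11 and 5.82 in SEM, against 7.83 in NALM6 and 6.90 in REH. Both translocation lines were thus below both others, and SEM, with SNURF-SNRPN at 9.90, was the lowest. The mean was 5.89 ± 0.11 with t(4;11) and 7.36 ± 0.66 without it (SD, n = 2 each), a difference of -1.47 that did not pass (limma, SE 0.36, adjusted p = 0.467). NALM6 and REH differed by more than RS4;11 and SEM did.

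CYFIP1, a subunit of the actin-regulating WAVE complex that also binds the translation factor eIF4E, had the largest upward difference of the members. It was at 10.36 in RS4;11 and 9.98 in SEM, against 8.58 in NALM6 and 8.98 in REH. The mean was 10.17 ± 0.27 with t(4;11) and 8.78 ± 0.28 without it (SD, n = 2 each), which is 2.63-fold higher in the translocation lines. The difference of 1.39 did not pass over all probe sets (limma, SE 0.22, adjusted p = 0.352), and without RS4;11, SEM alone lay 1.20 above NALM6 and REH (limma, adjusted p = 0.562).

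Its neighbours NIPA1 and NIPA2 encode magnesium transporters and varied less. NIPA1 was at 8.58 in RS4;11 and 8.73 in SEM, against 8.54 in NALM6 and 8.01 in REH. NIPA2 was at 10.74 and 10.91 against 10.61 and 10.03. REH was the lowest line for both, and also for TUBGCP5, a gamma-tubulin complex gene next to CYFIP1, with 8.88 in RS4;11 and 8.71 in SEM, against 8.58 in NALM6 and 8.17 in REH. REH was lowest in 35.9% of all probe sets. The group differences were 0.38 for NIPA1 (limma, SE 0.22, adjusted p = 0.713) and 0.51 for NIPA2 (limma, SE 0.24, adjusted p = 0.658), with NALM6 within 0.05 and 0.14 of the nearer translocation line. They were smaller without REH, 0.12 for NIPA1 and 0.22 for NIPA2, and larger without NALM6, 0.65 for NIPA1 and 0.80 for NIPA2. With 1 array per line, the spread within a line was not measured, and such small steps in the order of lines cannot be set against it.

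**Figure D3:**
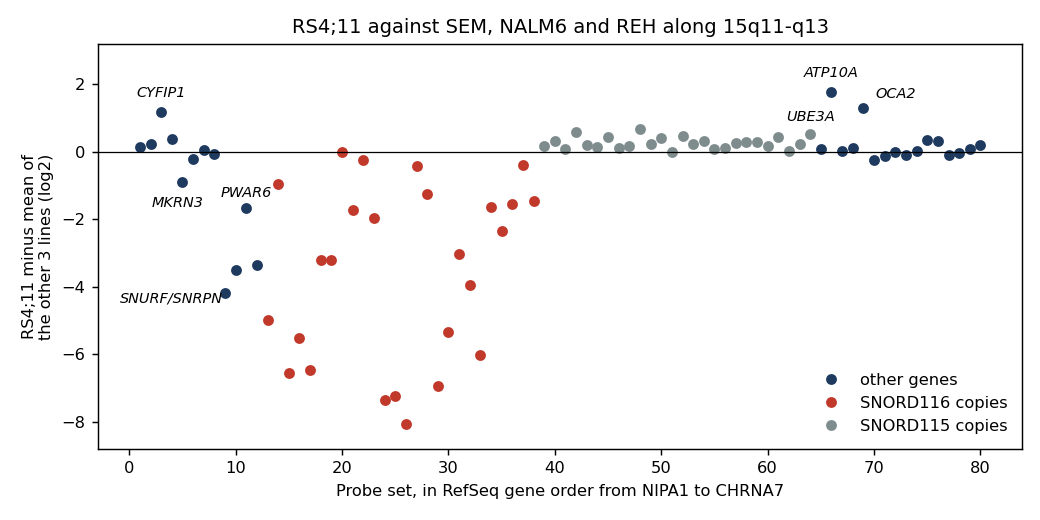
Difference between RS4;11 and the mean of SEM, NALM6 and REH (y axis, log2) for 80 probe sets with distinct values in RefSeq gene order (x axis, not to genomic scale). The values drop at SNURF/SNRPN (-4.17), lie between -8.05 and 0.00 over the SNORD116 copies and lie between 0.01 and 0.67 over SNORD115 and at 0.08 for UBE3A. SNORD115 was dim in all lines, so a drop there could go unseen. Probe sets listed with gene copies elsewhere (HERC2, GOLGA6L1, CHRNA7 and OTUD7A copies) are left out.

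Of 35 further genes listed for 15q11 to 15q13, 24 had a probe set. Among 16 genes outside the SNURF-SNRPN unit (17 probe sets, none shared with a copy elsewhere), RS4;11 stood more than 0.4 from the mean of the other lines in 2, ATP10A and OCA2, both upward. The other 15 probe sets lay between -0.23 (HERC2) and 0.39 (TUBGCP5). Among them, GABRA5, GABRG3, APBA2, TJP1, TRPM1, OTUD7A and CHRNA7 were dim, between 4.56 and 5.58 in every line. MTMR10, a myotubularin gene, FAN1, a DNA repair nuclease gene, NSMCE3, an SMC5/6 complex gene, and the brighter probe set of KLF13, a transcription factor gene, lay between 6.94 and 10.96. Over 534 genes of chromosome 15 the median of RS4;11 minus the other lines was 0.01, and over all 18377 genes it was 0.02.

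ATP10A and OCA2 parted the groups rather than RS4;11 alone. ATP10A, a phospholipid flippase next to UBE3A, was at 7.48 in RS4;11 and 6.85 in SEM, against 4.98 in NALM6 and 5.31 in REH, a 4.04-fold difference (limma, log2 difference 2.01, SE 0.28, adjusted p = 0.321). OCA2, a melanosomal transport protein of pigment cells, was at 7.34 and 7.46 against 5.48 and 5.22, 4.15-fold (limma, log2 difference 2.05, SE 0.14, adjusted p = 0.141). Neither passed over all probe sets. HERC2, an E3 ubiquitin ligase gene next to OCA2, was at 8.93 and 9.16 against 9.19 and 9.11, with a difference of -0.11 (limma, adjusted p = 0.837).

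**Figure D4:**
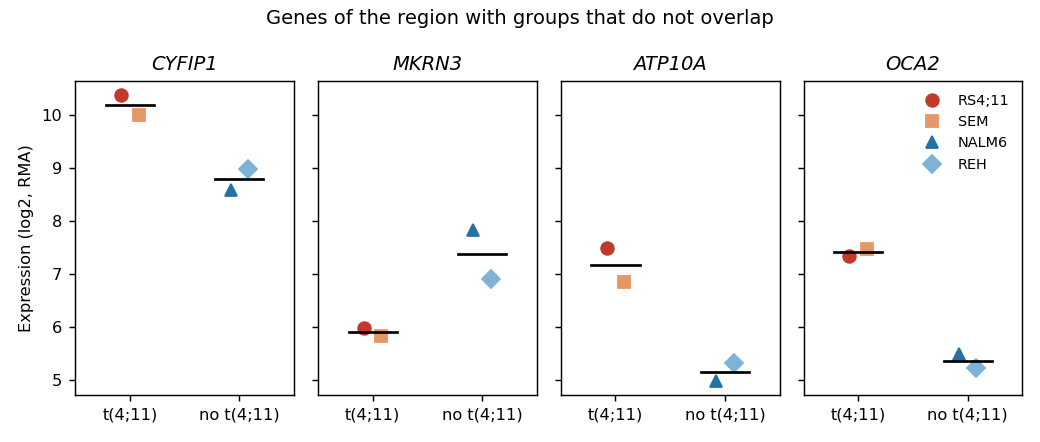
Log2 expression (y axis) of CYFIP1, MKRN3, ATP10A and OCA2 in the lines with t(4;11) and without it (x axis), with 1 point per line and bars at the group mean. CYFIP1, ATP10A and OCA2 are higher in both translocation lines and MKRN3 is lower in both, and none of the 4 passed limma's threshold.

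The comparison of lines with and without t(4;11) was fitted over all 32968 probe sets. At an adjusted p of 0.05, 12 passed (0.0364%), with 6 higher in the lines with t(4;11) and 6 lower (0.0182% each), and 0 of the 16 member probe sets did (limma, smallest adjusted p = 0.352). At an unadjusted p of 0.05, 2 of 16 (CYFIP1 and MKRN3) stood against 9.0% of all probe sets. The groups did not overlap in 9 of 16 (8 of 13 distinct), against 41.5% of all. Of these, 4 were higher (24.1% of all) and 5 lower (17.4% of all). The lower ones include the probe sets listed for SNORD116 copies and SNRPN, whose low RS4;11 values entered the choice of the region. Nothing is read from these shares. They stood at least 2-fold apart in 1 of 16 upward (CYFIP1) and 0 of 16 downward, with 0.722% and 0.582% of all. An exact permutation test of 2 lines against 2 cannot go below a two-sided p of 0.333.

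Within the SNURF-SNRPN unit the translocation lines differed widely from each other. The SNURF-SNRPN probe set averaged 7.72 ± 3.10 in RS4;11 and SEM, against 9.60 ± 0.03 in NALM6 and REH (SD, n = 2 each), a difference of -1.88 (limma, SE 1.65, adjusted p = 0.777). Without RS4;11 it was 0.31, and without SEM it was -4.07, which sets RS4;11 alone against NALM6 and REH and is given with no test. PWAR6 differed by -0.92 (limma, SE 0.64, adjusted p = 0.743) and by -0.12 without RS4;11. The fits with all lines include RS4;11, the line by which the region was picked, so nothing is read from their p-values here. Over the 10 genes the median difference was -0.07, with SNRPN by its brightest probe set, against 0.03 over all probe sets.

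Patterns over the 4 lines were compared by Euclidean distance of values centred on their mean. Genes of the region, the SNORD116 and SNORD115 copies and probe sets with several symbols were left out, though some of them may lie nearer. Of the remaining genes, nearest to the SNURF-SNRPN probe set were ZNF737 (distance 0.39), ZNF256 (0.76), YES1 (0.93), RFX3 (1.01) and AGK (1.02). ZNF737 was at 8.43 in RS4;11 and between 12.22 and 12.25 in the other lines. Among the same genes, nearest to the brightest SNRPN probe set were APP (0.66), BNIP3 (1.25), PXDN (1.65), AGK (2.35) and ZNF717 (2.37). APP was at 5.39 in RS4;11 against 11.59, 11.87 and 12.16 in SEM, NALM6 and REH. These are likenesses over 4 arrays.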

How the data were processed

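Total RNA was copied into labelled sense targets with a whole-transcript kit from Affymetrix, per the labels' protocols. The authors deposited log2 values per probe set made with RMA and Partek, per the submitters' processing notes. Software versions and the array's genome build were not stated in these sources, and the values themselves were the basis for taking the scale as log2. RMA equalises the arrays' distributions, which hides overall shifts, and makes no detection call. The number of arrays limits the precision. The limma p-values set a difference against the spread between lines of a group, moderated over all probe sets. Spread within a line was not measured.

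Probe sets were named from the platform annotation (19310 with 1 symbol, 1752 with several, 11906 with none listed). RefSeq (GRCh38.p14) gave the gene order and promoter sequences. Groups were compared with limma 3.58.1 (lmFit, eBayes, two-sided, R 4.3.3), without covariates, adjusted by Benjamini-Hochberg over all 32968 probe sets at 0.05. Differences are the translocation lines minus the others. The fit was checked on simulated data. A member with several probe sets was represented by the brightest for counts over the 10 genes. The markers, the further lists, the medians over chromosome 15 and over all genes, and the nearest genes used a stricter rule. There a gene was read by its brightest probe set with 1 symbol, and a gene without one counts as not measured. Named genes were all members, the measured genes of the region, the 2 largest differences per direction in each further list, and the 5 nearest genes outside the region per pattern. Alternatives were repeated quantile normalization, centred arrays, 1 probe set per gene, no dim probe sets (mean at or below the median), trend or robust eBayes, no shared probe sets, mean of probe sets, other fold thresholds and leaving out each line. Members and lists were chosen with earlier results of these data known. Tables used pandas 2.3.3 and numpy 2.4.6 under Python 3.11.15. Figures used matplotlib 3.10.9.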

Additional observations from a re-analysis of the deposited data

How the results depend on the processing

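Over the alternatives run, 95 of 97 member differences between the groups kept their sign, and none passed (limma, smallest adjusted p = 0.227, without the fit that leaves RS4;11 alone in its group, which is read with no test). The signs that turned were those of NDN without REH and of the SNURF-SNRPN probe set without RS4;11. With each line left out in turn, NDN ran from -0.0016 to 0.11 and SNURF-SNRPN from -4.07 to 0.31, and removing RS4;11 took away the 1 low line. The cause for NDN was not tested. Of 59 member values of RS4;11 minus the other lines, 2 moved by more than the spread of those lines, SNRPN as the mean of its 8 probe sets (-2.68 in place of -7.25) and UBE3A with centred arrays (0.05 in place of 0.08). A further 3 changed sign within that spread, NIPA1 (-0.05 in place of 0.16) and NIPA2 (-0.02 in place of 0.23) without REH, and NDN with repeated quantile normalization (-0.0022 in place of 0.05). The count of 12 probe sets past limma's threshold was 20 with centred arrays (13 higher, 7 lower), 4 with 1 probe set per gene (2 and 2), 30 without dim probe sets (19 and 11), 3 with an intensity trend (2 and 1), and 0 (lowest and highest count) when any 1 line was left out, where 1 residual degree of freedom remained, the lone line was assumed to vary like the others and 2270 to 4151 probe sets had an unadjusted p under 0.05. The member probe sets at least 2-fold from every other line numbered 5, against 6 at 1.5-fold and 4 at 4-fold. All were low in RS4;11 except 1 at 1.5-fold, which was high in NALM6. With probe sets of several symbols left out, SNURF and SNRPN had no value. No paired analysis was possible because the groups are made of separate lines. Dim values, as for NDN, MAGEL2 and SNORD115, limit what could be seen to fall.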

Other observations

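Other lists were read beside the 15q11 genes. In them, unlike for the members, a gene counts as measured only if a probe set carried its symbol alone. Over all probe sets, 0.0364% passed the comparison of the translocation lines with the others and 9.0% had an unadjusted p under 0.05 (limma). Of 25 measured imprinted genes elsewhere in the genome, 0 passed and 3 had an unadjusted p under 0.05 (limma). Their median difference was 0.09, against 0.03 over all probe sets. In RS4;11, 1 of 25 was at least 2-fold below every other line, against 0.488% of all probe sets. This was SGCE, a sarcoglycan gene, at 6.76 in RS4;11 and 8.11 in SEM, against 9.07 in NALM6 and 9.95 in REH. MEST, a hydrolase gene, was higher in both translocation lines, at 10.33 and 9.55 against 5.41 and 7.01 (limma, difference 3.73, SE 0.67, adjusted p = 0.381). ZDBF2 stood out in SEM alone, at 7.19 against at most 4.53 in the other lines, and DLGAP2 was dim with its highest value in REH (6.40).

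Among 18 genes of imprint maintenance and DNA methylation 0 passed (limma, 3 at an unadjusted p under 0.05, median difference 0.02). TET1, a DNA demethylase gene, was at 5.41 in RS4;11 and 4.83 in SEM, against 7.20 in NALM6 and 8.05 in REH (limma, difference -2.51, adjusted p = 0.352). ATRX differed by -0.66, TRIM28 by 0.21 and DNMT3A by 0.29. Of 15 genes of Sm proteins and the SMN complex, which assemble spliceosomal particles, 0 passed (limma, 1 at an unadjusted p under 0.05, median difference 0.14, extremes GEMIN5 at -0.38, GEMIN2 at -0.20, SNRPD1 at 0.38 and SNRPB2 at 0.39), and of 8 box C/D snoRNP genes 0 passed (limma, 0 at an unadjusted p under 0.05, median difference 0.01, with NUFIP1 at -0.49, FBL at -0.22, NOP58 at 0.05 and ZNHIT3 at 0.27).

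Partners and paralogues of the other members gave 0 calls (limma). Unadjusted p-values under 0.05 numbered 0 for MAGE partners, 0 for WAVE and FMRP genes and 2 for UBE3A partners. They numbered 1 for magnesium transport genes, NIPA paralogues and BMPR2. Over all probe sets the share was 9.0%. Among 10 partners of MAGE proteins (median -0.06), MAGED1 was at 9.33 in RS4;11 and 10.41 in SEM, against 10.95 in NALM6 and 11.24 in REH. E2F1 differed by -0.51, E2F4 by 0.46 and MAGED2 by 0.57. Among 14 WAVE and FMRP genes (median -0.08), WASF3 was raised in SEM alone (7.78 against at most 5.29) and NCKAP1 in REH alone (8.59 against at most 5.16), while NCKAP1L differed by -0.46 and RAC2 by 0.24. Among 8 UBE3A partners (median -0.01) the extremes were RING1 at -0.21, NEURL4 at -0.20, UBE3C at 0.45 and BLK at 0.47. The last list held 13 genes, with magnesium transport genes, NIPA paralogues and the BMP receptor gene BMPR2 (median -0.04). In it, NIPAL2 was at 9.65 in RS4;11 and 8.88 in SEM, against 5.11 in NALM6 and 5.17 in REH (limma, difference 4.12, SE 0.30, adjusted p = 0.16). MRS2 was highest in RS4;11 (9.31 against at most 8.30), BMPR2 lowest there (8.18 against at least 9.31), and CNNM2 differed by -0.76.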
